A study of Rattus norvegicus with 12 samples.

Results

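The 54 genes described here encode the machinery that builds ribosomes. They include subunits and cofactors of RNA polymerase I, the small nucleolar ribonucleoproteins that modify ribosomal RNA, the processome that forms around the nascent small-subunit RNA, and factors that assemble the large subunit. They were chosen by gene name in the deposited gene table of a rat kidney RNA-seq study. The only measured value in the choice was the mean over the 12 libraries, which would have picked among repeated rows of a symbol, and each of the 54 symbols had 1 row. All 54 were among the 14664 genes that passed the filter on low counts, and their mean levels ran from 12.7 to 456 CPM, the count scaled to a common library size. The list of names was drawn up with earlier results of these data known, so its counts and medians are descriptions.

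The study compared kidneys of rats in 3 groups of 4 libraries. The first group had cardiopulmonary bypass with nitrite (CPB+Nitrite), the second had cardiopulmonary bypass alone (CPB) and the third was labelled sham. Bypass pumps and oxygenates the blood outside the body during heart surgery, and the series asks whether nitrite lessens the kidney injury that can follow it. The sources used here do not give strain, age, nitrite dose, length of bypass or time of sampling, nor state that each library came from its own animal, so p-values measure the spread between these libraries. Library totals ran from 16837055 to 25776044 estimated counts.

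The CPB+Nitrite libraries were less alike than those of the other groups. On the first principal component, which held 52.4% of the variance, CPB+Nitrite 1 and CPB+Nitrite 4 lay at 42.4 and 27.3, CPB+Nitrite 2 and CPB+Nitrite 3 lay at -49.8 and -33.3, the CPB libraries lay between 46.8 and 76, and the sham libraries lay between -73.9 and -37.4. CPB+Nitrite 2 also stood apart on the second component, at -91.9. The median correlation with the other libraries of the same group was 0.918 to 0.947 in CPB+Nitrite, 0.973 to 0.98 in CPB and 0.966 to 0.977 in sham. The group of these 4 libraries rests on their labels alone, and whether all 4 belong to 1 condition was not tested. Every nitrite value below carries that doubt, and the nitrite results are given by library.

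Ribosomes are made in the nucleolus. RNA polymerase I transcribes a long precursor RNA, box C/D particles methylate it and box H/ACA particles convert uridines in it to pseudouridine. The UTP-A and UTP-B complexes, the U3 particle and many helicases and GTPases take part in folding and cutting it. The subunits are then finished and exported separately. The transcription factor MYC, bound to its partner MAX at the DNA letters CACGTG (the E-box), is a known activator of many of these genes, and cells that grow or repair themselves raise their output of ribosomes.

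Promoter sequence was shown for genes with and without these letters, because MYC is known to act on this pathway. The RefSeq promoter table for the GRCr8 build held 48 of the 54 genes, each with 250 bases before and 50 bases after the gene start. The letters CACGTG, which read the same on both strands, occurred in 18 of the 48 windows (37.5%), against 6.42% of all 33469 windows in the table and 9.27% of the 10173 windows of other tested genes with a single entry. With the bases before the start alone, 11 of 48 windows held them (22.9%), against 5.59% of all windows and 8.08% of those of other tested genes. They were present in 14 of the 40 genes that rose in CPB kidneys and in 4 of the 8 that did not pass the test. The 100 bases before the start are printed below 5′ to 3′ on the gene's strand, with each CACGTG in capitals. Gnl3, Pes1, Ddx18 and Utp4 rose in CPB kidneys and hold the letters close to the start, Rrp1 and Utp18 hold them and did not pass the test, and Nop56 and Rrp12 rose among the most and show none in this stretch, although Rrp12 has 1 match just after its start. A match is only a run of letters.
Gnl3, chr16:6219783-6219882, minus strand: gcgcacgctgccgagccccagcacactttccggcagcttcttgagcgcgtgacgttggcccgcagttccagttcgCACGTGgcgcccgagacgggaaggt
Pes1, chr14:83074246-83074345, plus strand: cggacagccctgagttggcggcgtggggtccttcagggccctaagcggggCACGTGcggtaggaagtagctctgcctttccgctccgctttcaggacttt
Ddx18, chr13:35295973-35296072, minus strand: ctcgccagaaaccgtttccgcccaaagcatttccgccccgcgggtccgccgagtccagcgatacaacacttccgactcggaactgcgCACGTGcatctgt
Utp4, chr19:51702141-51702240, plus strand: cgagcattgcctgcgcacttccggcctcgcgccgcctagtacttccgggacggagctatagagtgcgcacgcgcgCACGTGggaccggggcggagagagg
Rrp1, chr20:10260480-10260579, plus strand: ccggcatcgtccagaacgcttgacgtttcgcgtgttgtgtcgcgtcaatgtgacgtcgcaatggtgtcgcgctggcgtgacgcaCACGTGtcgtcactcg
Utp18, chr10:79335758-79335857, minus strand: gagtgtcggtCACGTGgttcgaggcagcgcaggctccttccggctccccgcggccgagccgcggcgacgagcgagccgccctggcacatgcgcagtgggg
Nop56, chr3:137930079-137930178, plus strand: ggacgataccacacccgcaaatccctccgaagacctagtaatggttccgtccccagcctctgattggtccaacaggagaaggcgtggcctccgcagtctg
Rrp12, chr1:250655319-250655418, minus strand: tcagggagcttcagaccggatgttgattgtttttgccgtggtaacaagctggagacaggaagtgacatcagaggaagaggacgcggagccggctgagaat

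Most ribosome biogenesis genes were higher in CPB than in sham kidneys. Of the 54 genes, 45 (83.3%) rose at an adjusted p under 0.05, and none fell. The p-values come from the quasi-likelihood test of edgeR, adjusted over all genes tested by the method of Benjamini and Hochberg. Over all tested genes, 21.7% rose and 21.5% fell. In 24 of the 45 the rise was 2-fold or more, a size that 10.2% of all tested genes reached upward. The median log2 change was 0.91 over the 54 genes and -0.05 over all genes, and 53 of the 54 changes were positive and 1 negative, against 47.4% and 52.6% of all. DESeq2 gave 46 of the 54 as higher (all genes 21.8% higher and 20.3% lower) and limma voom with sample weights gave 49 (all genes 29.7% higher and 31.7% lower). At an unadjusted p under 0.05 in edgeR, 47 were higher and none lower, against 25.7% and 27.0% of all genes. In 45 genes all 4 CPB libraries lay above all 4 sham libraries, against 23.5% of all genes, and none had the reverse, against 24.8%. These 45 are not quite the 45 that passed the test: Dcaf13 had no overlap but an adjusted p of 0.0716, and Imp3 passed at 0.0459 with overlapping groups. In kidney tissue as a whole, more RNA per cell and more cells that make it cannot be told apart.

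**Figure D1:**
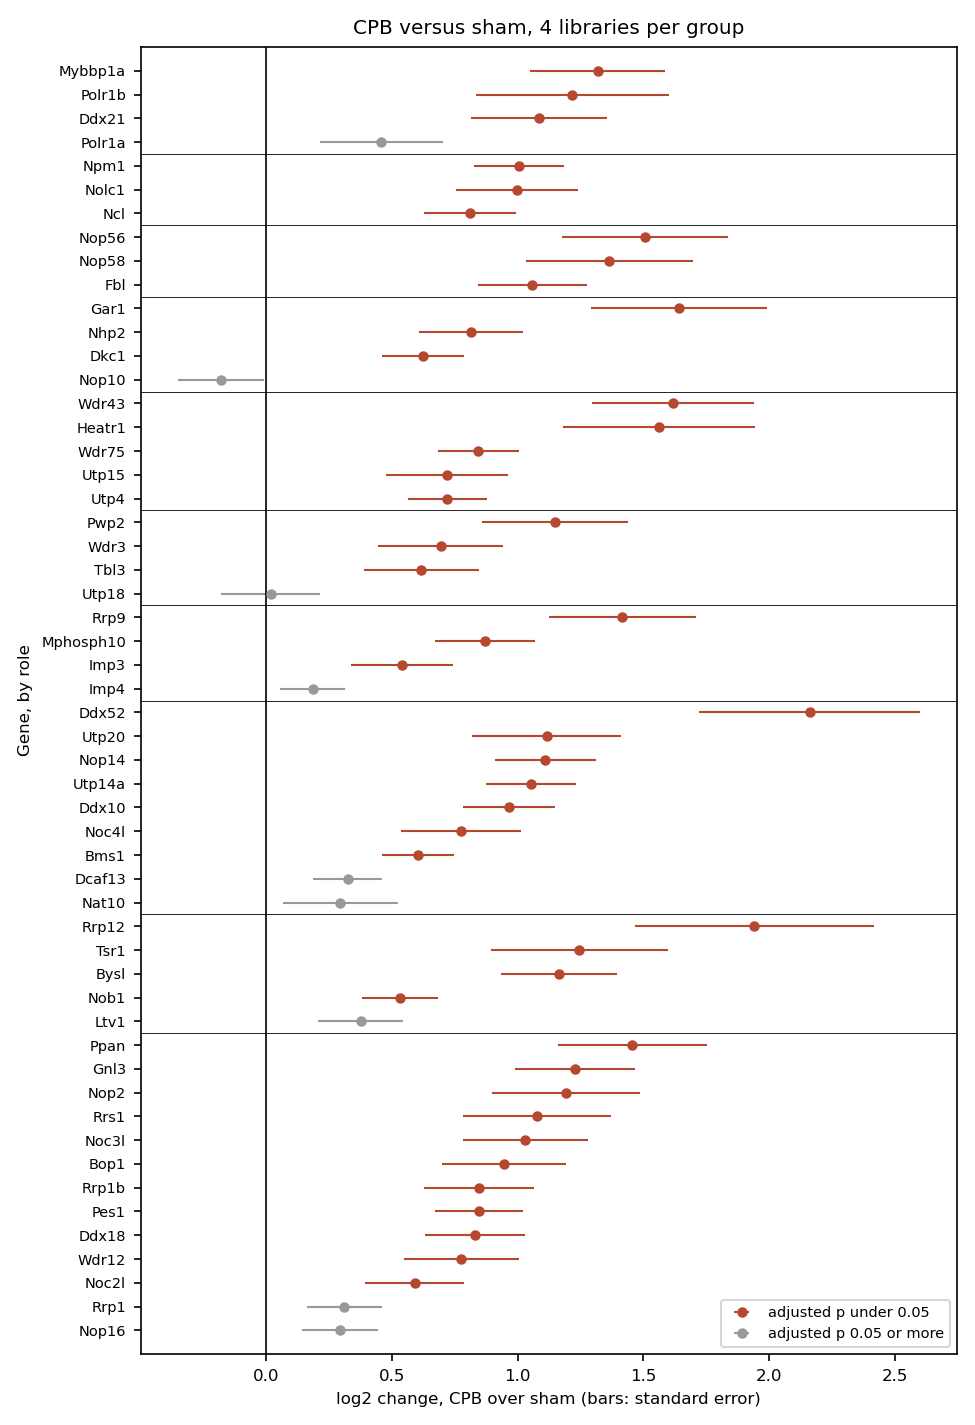
Log2 change of each of the 54 genes in CPB over sham kidneys (x axis, points) with its standard error (bars), the genes running down the page by role, red where the adjusted p was under 0.05 and grey elsewhere. The points run from -0.18 for Nop10 to 2.16 for Ddx52, and 53 of the 54 lie right of 0.

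Transcription of ribosomal DNA comes first. Mybbp1a, a nucleolar protein known to act on ribosomal DNA transcription, had 162, 58.9, 83.8 and 137 CPM in the CPB+Nitrite libraries, 182, 182, 154 and 223 in the CPB libraries and 77.4, 61.2, 86.9 and 71.5 in the sham libraries. Every CPB value lay above every sham value, and the CPB+Nitrite values were spread over both ranges. Its log2 change in CPB over sham was 1.32 (standard error (SE) 0.268, adjusted p 0.00318). Ddx21, an RNA helicase that links RNA polymerase I to RNA processing, had 156, 61.8, 76.3 and 134 CPM with nitrite, 165, 163, 112 and 148 in CPB and 56.8, 61.2, 83.0 and 76.4 in sham. CPB and sham did not overlap, and the log2 change was 1.09 (SE 0.27, adjusted p 0.00795). Polr1b, a subunit of the polymerase's catalytic core, rose by 1.22 on the log2 scale (adjusted p 0.0231), while Polr1a, the largest subunit, averaged 42.0 CPM in CPB and 30.6 CPM in sham kidneys and did not pass the test (adjusted p 0.144).

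The nucleolar phosphoproteins all rose. Npm1, a chaperone of ribosomal proteins and histones, had 318, 243, 180 and 292 CPM in CPB+Nitrite, 429, 337, 376 and 352 in CPB and 182, 183, 213 and 166 in sham. The CPB libraries lay above all the others, those with nitrite included. Its log2 change was 1.01 in CPB over sham (SE 0.178, adjusted p 0.00177). Nolc1, which carries small nucleolar particles through the nucleus, rose 1.99-fold, and Ncl (nucleolin) rose 1.75-fold. Npm1 has processed pseudogenes in mammals, with which its reads may have been shared.

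Box C/D particles gave the highest median log2 change of the 10 roles, 1.37, and all 3 genes rose. Nop56, a scaffold of the particle, had 94.2, 34.1, 38.3 and 107 CPM in CPB+Nitrite, 115, 106, 79.9 and 86.5 in CPB and 30.8, 32.1, 43.0 and 30.2 in sham. Every CPB library was well above every sham library, and the nitrite libraries took both levels. The log2 change was 1.51 (SE 0.331, adjusted p 0.00451). Fbl, the methyltransferase of the particle, had 76.2, 46.3, 36.1 and 72.4 CPM with nitrite, 69.7, 68.7, 65.2 and 81.7 in CPB and 34.7, 31.0, 40.5 and 30.7 in sham. Again CPB and sham were apart, and Fbl rose 2.08-fold (adjusted p 0.00323). Nop58, the partner of Nop56, rose 2.58-fold (adjusted p 0.00702).

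Box H/ACA particles have 4 proteins, which did not move alike. Gar1 had 21.6, 9.16, 6.51 and 24.4 CPM in CPB+Nitrite, 21.7, 21.8, 21.0 and 23.9 in CPB and 7.75, 5.83, 8.3 and 6.43 in sham. The CPB libraries were within a narrow band, nitrite libraries 1 and 4 were within or just above it, and nitrite libraries 2 and 3 were close to sham. Gar1 rose 3.12-fold in CPB over sham (log2 change 1.64, SE 0.349, adjusted p 0.00393). Dkc1, the pseudouridine synthase itself, had 187, 151, 116 and 165 CPM with nitrite, 172, 172, 138 and 159 in CPB and 124, 95.8, 104 and 91.8 in sham. It rose 1.54-fold in CPB (adjusted p 0.0101), with no overlap between CPB and sham. Nhp2 had 67.6, 44.6, 42.4 and 50.4 CPM with nitrite, 95.5, 61.6, 60.8 and 58.2 in CPB and 43.9, 39.4, 44.3 and 29.6 in sham. All CPB values were above all sham values, with CPB 1 far above the rest, and Nhp2 rose 1.76-fold (adjusted p 0.00886). Nop10, the smallest protein of the particle, was the single gene of the 54 with a negative log2 change (-0.18, SE 0.171, adjusted p 0.401). It had 51.6, 62.8, 45.3 and 38.5 CPM with nitrite, 48.8, 36.2, 39.4 and 35.4 in CPB and 49.8, 45.6, 48.5 and 37.5 in sham, and the 3 groups overlapped.

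The processome forms on the precursor in steps. All 5 genes of UTP-A, the complex that binds first, rose. Wdr43 had 83.0, 27.5, 31.9 and 80.0 CPM in CPB+Nitrite, 96.7, 96.9, 75.9 and 92.5 in CPB and 25.6, 25.2, 35.6 and 31.6 in sham. Its CPB and sham ranges were far apart, and it rose 3.07-fold (log2 change 1.62, SE 0.323, adjusted p 0.00292). Wdr75 had 27.8, 23.7, 19.0 and 32.0 CPM with nitrite, 34.8, 36.1, 33.3 and 42.3 in CPB and 19.2, 20.4, 21.9 and 20.0 in sham. Every CPB library exceeded every library of both other groups, and Wdr75 rose 1.79-fold over sham (adjusted p 0.0024). Heatr1 rose 2.95-fold, and Utp15 and Utp4 rose 1.65-fold each.

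Of the UTP-B genes, 3 of 4 rose. Pwp2 had 49.4, 16.7, 21.6 and 43.9 CPM with nitrite, 46.1, 49.4, 39.7 and 57.3 in CPB and 20.1, 21.4, 22.4 and 23.0 in sham. The CPB values were all above the sham values, and Pwp2 rose 2.21-fold (log2 change 1.15, SE 0.29, adjusted p 0.00859). Wdr3 had 32.9, 12.9, 19.3 and 28.3 CPM with nitrite, 37.7, 36.1, 28.9 and 37.0 in CPB and 19.5, 17.7, 25.2 and 23.8 in sham. CPB and sham did not overlap, nitrite library 2 was below all of them, and Wdr3 rose 1.62-fold (adjusted p 0.0384). Tbl3 rose 1.53-fold (adjusted p 0.0452). Utp18 had 40.7, 37.6, 30.1 and 33.1 CPM with nitrite, 43.4, 38.9, 30.2 and 22.6 in CPB and 28.2, 32.1, 39.2 and 34.2 in sham. Its groups overlapped throughout, with a log2 change of 0.02 in CPB over sham (adjusted p 0.951).

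The U3 particle and its MPP10 partners take part in the cutting of the precursor at its leading end. Rrp9, the protein specific to U3, had 38.7, 20.7, 14.2 and 38.2 CPM in CPB+Nitrite, 45.0, 43.7, 37.3 and 48.2 in CPB and 15.0, 13.7, 22.6 and 13.9 in sham. CPB and sham were apart, and Rrp9 rose 2.67-fold (log2 change 1.42, SE 0.293, adjusted p 0.00345). Mphosph10 rose 1.83-fold and Imp3 1.45-fold, whereas Imp4 averaged 72.8 CPM in CPB and 64.1 CPM in sham kidneys (adjusted p 0.256).

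Other processome factors supplied the largest change of the list. Ddx52, an RNA helicase whose yeast counterpart frees small nucleolar RNA from the precursor, had 122, 22.5, 30.3 and 36.6 CPM in CPB+Nitrite, 90.9, 93.4, 132 and 95.2 in CPB and 19.0, 22.5, 28.5 and 22.1 in sham. The CPB libraries were far above sham, and with nitrite only library 1 was in the CPB range. Ddx52 rose 4.47-fold (log2 change 2.16, SE 0.439, adjusted p 0.00314). Utp14a, a cofactor of a processome helicase, had 36.3, 21.1, 22.9 and 32.8 CPM with nitrite, 42.6, 40.1, 38.1 and 44.5 in CPB and 18.9, 18.6, 23.2 and 18.9 in sham. It had the smallest adjusted p of the 54 (0.00151), with a 2.08-fold rise and CPB above all other libraries. Nop14 had 46.3, 26.2, 26.5 and 44.9 CPM with nitrite, 46.4, 52.3, 50.3 and 59.8 in CPB and 23.5, 21.4, 27.3 and 24.5 in sham. CPB values again exceeded all others, and Nop14 rose 2.16-fold (adjusted p 0.00194). Utp20, Ddx10, Noc4l and the GTPase Bms1 rose 2.17-fold, 1.95-fold, 1.71-fold and 1.52-fold. Dcaf13 and the RNA acetyltransferase Nat10 did not pass, at log2 changes of 0.32 and 0.29.

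Late factors finish the small subunit in the nucleus and cytoplasm, and 4 of 5 rose. Rrp12, an export factor, had 75.1, 12.5, 21.7 and 79.3 CPM in CPB+Nitrite, 77.0, 71.0, 47.5 and 68.3 in CPB and 18.4, 13.1, 21.0 and 16.2 in sham. CPB and sham were well apart, and nitrite libraries 1 and 4 were near or above the top of the CPB range. Rrp12 rose 3.84-fold (log2 change 1.94, SE 0.476, adjusted p 0.00745). Bysl, which binds the pre-subunit in the nucleus, had 59.3, 25.8, 33.0 and 50.7 CPM with nitrite, 63.3, 63.9, 56.1 and 74.9 in CPB and 28.9, 25.2, 34.3 and 26.8 in sham. There was no overlap between CPB and sham, and Bysl rose 2.24-fold (adjusted p 0.0028). Tsr1 rose 2.37-fold and Nob1, the nuclease of the final cut, rose 1.45-fold, while Ltv1 averaged 41.9 CPM in CPB and 32.3 CPM in sham kidneys (adjusted p 0.0871).

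For the large subunit, 11 of 13 genes rose, with a median log2 change of 0.85. Ppan had 84.9, 30.6, 35.4 and 81.8 CPM in CPB+Nitrite, 84.1, 78.9, 71.8 and 87.5 in CPB and 33.4, 23.7, 32.1 and 28.2 in sham. CPB was above sham throughout, and Ppan rose 2.74-fold (log2 change 1.46, SE 0.297, adjusted p 0.00321). Gnl3 (nucleostemin), a nucleolar GTPase, had 78.2, 48.2, 39.7 and 77.0 CPM with nitrite, 101, 87.9, 85.3 and 80.1 in CPB and 33.7, 30.4, 53.8 and 33.6 in sham. The CPB libraries were above all others, and Gnl3 rose 2.34-fold over sham (adjusted p 0.00263). Nop2, an RNA methyltransferase, had 66.3, 22.7, 31.2 and 59.9 CPM with nitrite, 90.8, 78.4, 59.1 and 87.6 in CPB and 38.1, 28.2, 38.6 and 33.5 in sham. It rose 2.28-fold (adjusted p 0.00771), again with no overlap. All 3 genes of the PeBoW complex, which is required for large-subunit RNA maturation, rose: Pes1 1.8-fold, Bop1 1.93-fold and Wdr12 1.71-fold. Rrs1, Noc3l, Rrp1b, the helicase Ddx18 and Noc2l also rose, by 2.11-fold to 1.51-fold. Rrp1 averaged 62.7 CPM in CPB and 50.6 CPM in sham kidneys (adjusted p 0.106), and Nop16 averaged 48.9 CPM in CPB and 39.9 CPM in sham kidneys (adjusted p 0.126).

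The 9 genes that did not pass were thus scattered over the roles: Polr1a, Nop10, Utp18, Imp4, Dcaf13, Nat10, Ltv1, Rrp1 and Nop16. The fit drew its spread from all 12 libraries, those with nitrite included. With only the CPB and sham libraries fitted, 49 of the 54 were higher (all genes 28.8% higher). Of the 45 that rose in the fit of all 12 libraries, 38 passed in each of the 12 fits that left out 1 library. The other 7 lost the call in at least 1 of these: Noc2l, Noc4l, Utp15, Wdr3, Imp3, Polr1b and Tbl3. Scaling by library totals alone lowered the median of all genes by 0.19 on the log2 scale and turned the share of higher calls among all calls from 50.3% to 34.8%. It left 39 of the 54 genes higher (all genes 15.6% higher and 29.1% lower), and the median of the 54 above that of all genes was 0.96 with either scaling. In all, 15 of the 54 overlap another gene on the opposite strand, and 13 of these rose. Of the 15, Mybbp1a also overlaps a gene on its own strand, Ggt6, which strand cannot separate. The library kit keeps strand, but whether the counting used it is not given in the sources used here. The deposited table calls Imp3 and Ddx18 pseudogenes.

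**Figure D2:**
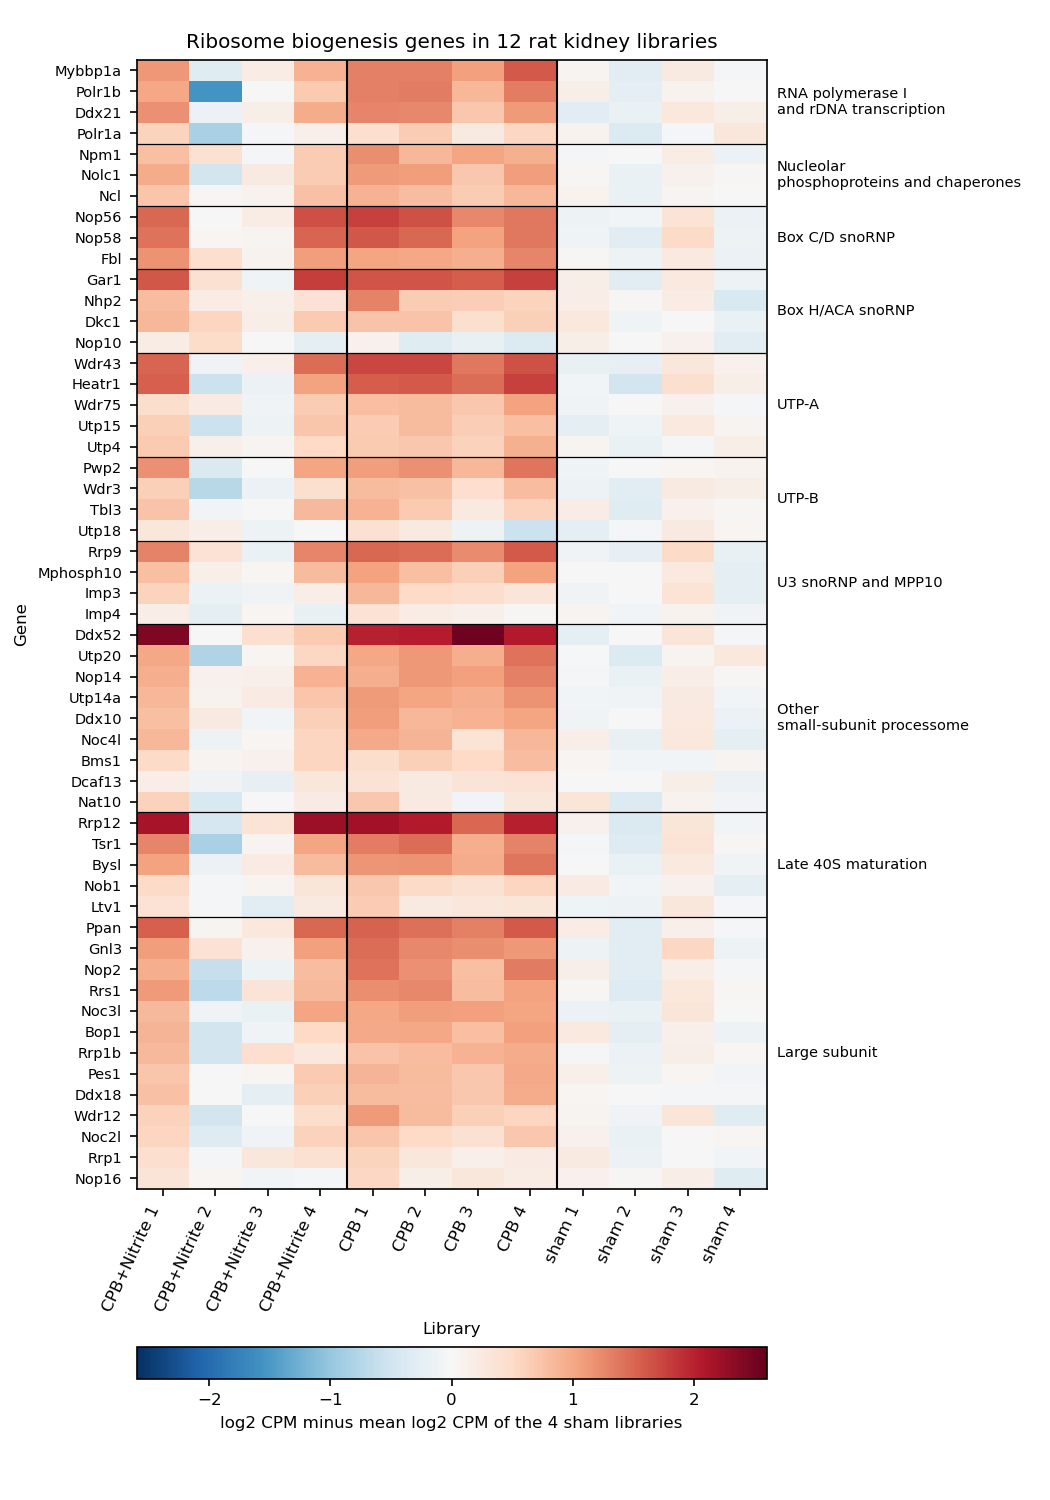
Level of each of the 54 genes (rows, by role) in each of the 12 libraries (columns), as log2 CPM minus the mean log2 CPM of the 4 sham libraries, red above and blue below it. All 4 CPB columns and the columns of CPB+Nitrite 1 and 4 are mostly red, and the columns of CPB+Nitrite 2 and 3 are mostly near white or blue.

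Between CPB+Nitrite and CPB kidneys, no gene passed the test, and the CPB+Nitrite libraries were spread over the levels of both other groups. In edgeR, 0 of the 54 genes and 0 of 14664 genes had an adjusted p under 0.05 (background 0.0% in either direction), and the smallest adjusted p of the 54 was 0.0744, for Wdr75. At an unadjusted p under 0.05, 24 of the 54 were lower with nitrite and none higher, against 12.2% and 17.3% of all genes. The log2 change was negative for 52 of the 54 (all genes 45.9%) and positive for 2 (all genes 54.1%), with a median of -0.485 (all genes 0.05). Groups did not overlap for 6 genes, Npm1, Nop14, Utp14a, Wdr75, Ddx10 and Gnl3, all lower with nitrite, against 6.27% of all genes lower and 6.44% higher. DESeq2 gave 5 of the 54 as lower with nitrite (Wdr75, Npm1, Utp14a, Ddx10 and Mybbp1a), against 5.84% of all genes it tested (8.85% higher), and limma voom with sample weights gave none (0.00682% of all genes higher). This comparison and the comparison of CPB with sham share the 4 CPB libraries.

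The spread within CPB+Nitrite is clearest in the mean level of the 54 genes, taken as log2 CPM relative to the sham mean. It was 0.90, -0.14, 0.04 and 0.72 in CPB+Nitrite libraries 1 to 4, 1.03, 0.94, 0.76 and 0.96 in the CPB libraries and 0.02, -0.16, 0.20 and -0.05 in the sham libraries. The standard deviation over 4 libraries was 0.505 in CPB+Nitrite, 0.117 in CPB and 0.149 in sham. Nitrite libraries 1 and 4 were close to or within the CPB range, and nitrite libraries 2 and 3 were within the sham range. Gene by gene, the median standard deviation of log2 CPM was 0.488 in CPB+Nitrite, 0.172 in CPB and 0.21 in sham, against 0.426, 0.261 and 0.227 over all genes in these groups. The widest of the 54 within CPB+Nitrite was Rrp12, at 1.32.

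**Figure D3:**
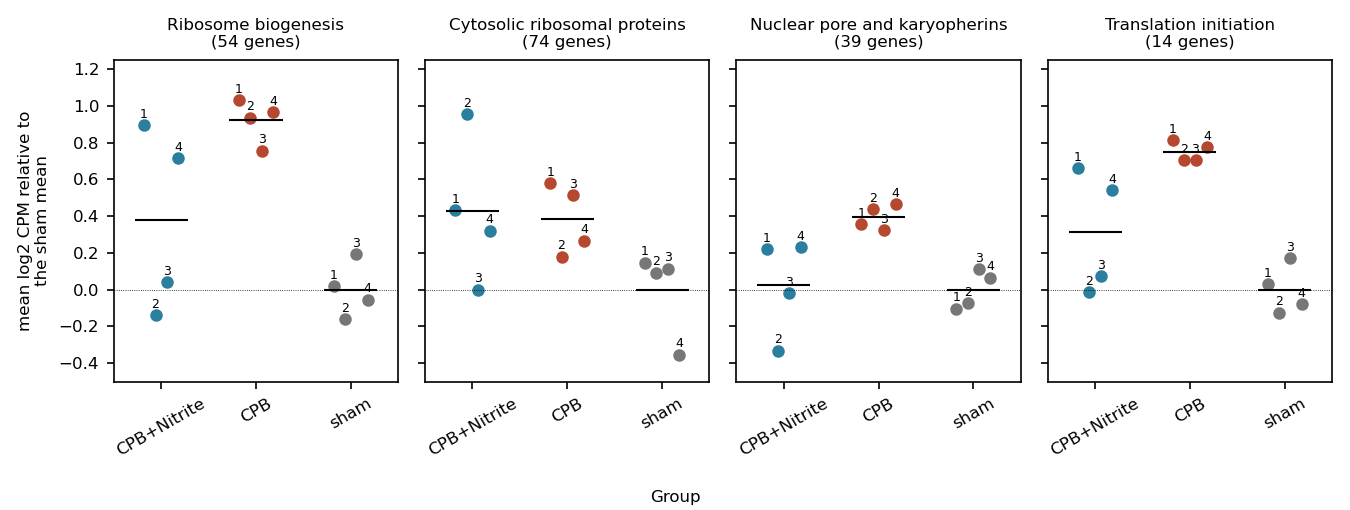
Mean log2 CPM relative to the sham mean (y axis) of 4 gene lists in each library (points, numbered by library) of CPB+Nitrite, CPB and sham kidneys, with the group mean as a bar. For ribosome biogenesis, nitrite libraries 1 and 4 lie at 0.90 and 0.72 and libraries 2 and 3 at -0.14 and 0.04, while for ribosomal proteins nitrite library 2 is the highest of all, at 0.96.

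Counts of genes by library show the same arrangement. CPB+Nitrite 1 lay above every sham library for 54 of the 54 genes (all genes 33.7%) and CPB+Nitrite 4 for 46 (all genes 35.6%). CPB+Nitrite 2 did so for 7 (all genes 35.1%) and CPB+Nitrite 3 for 9 (all genes 21.1%). Conversely, CPB+Nitrite 2 lay below every CPB library for 51 genes (all genes 37.7%) and CPB+Nitrite 3 for 49 (all genes 30.4%), against 9 for CPB+Nitrite 1 (all genes 21.4%) and 26 for CPB+Nitrite 4 (all genes 25.6%). CPB+Nitrite 3 was within the sham range for 40 genes (all genes 60.0%). CPB+Nitrite 2 was within it for 28 (all genes 30.7%) and below every sham library for 19 (all genes 34.2%). Polr1b had 27.6, 4.69, 13.6 and 22.0 CPM with nitrite, 34.1, 34.5, 24.8 and 34.7 in CPB and 15.2, 11.6, 14.7 and 13.6 in sham. Its value in CPB+Nitrite 2 was the lowest of the 12. Polr1b was named here after its values were seen.

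Single libraries decided the nitrite counts. Without CPB+Nitrite 1, 23 of the 54 genes were lower in CPB+Nitrite than in CPB (all genes 8.67%, and 10.6% higher), led by Ddx52 with a log2 change of -1.83 and an adjusted p of 0.00406 in edgeR, and the median over the 54 was -0.71. Without CPB+Nitrite 2 the median was -0.31, and in that fit none of the 54 and none of all genes passed (0.0% in either direction). CPB+Nitrite 2 also stood apart in cell type markers, of which Umod and Aqp2 are named after their values were seen. Umod, made in the thick ascending limb, had 4340, 299, 6500 and 3760 CPM in the nitrite libraries, 4830, 4750, 3930 and 6370 in CPB and 7020, 5620, 4960 and 6300 in sham. Aqp2, the water channel of the collecting duct, had 714, 2760, 856 and 740 CPM in the nitrite libraries, 494, 308, 395 and 565 in CPB and 989, 904, 699 and 661 in sham. Relative to the sham mean, the mean log2 level of 4 endothelial markers was 2.24 in CPB+Nitrite 2 and -0.257 to 0.70 in the other nitrite libraries. That of 3 podocyte markers was 1.72 in CPB+Nitrite 2 and 0.103 to 0.786 in the other nitrite libraries. The part of these markers in the result was not tested.

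Between CPB+Nitrite and sham kidneys, none of the 54 genes passed in edgeR (all genes 3.85% higher and 0.955% lower, and 2.96% higher by 2-fold or more). The smallest adjusted p was 0.0586, for Fbl. At an unadjusted p under 0.05, 22 were higher and none lower (all genes 16.3% higher and 11.1% lower). The log2 change was positive for 53 of the 54 (all genes 52.9%) and negative for 1 (all genes 47.1%), with a median of 0.41 (all genes 0.04), and no gene of the 54 had groups that did not overlap (all genes 5.64% higher and 5.87% lower). DESeq2 gave 9 genes as higher, Dkc1, Fbl, Rrp12, Ppan, Gar1, Nop56, Ddx52, Wdr43 and Gnl3 (9.68% of all genes it tested higher and 4.79% lower). Limma voom with sample weights gave 25 (10.9% of all genes higher and 8.67% lower), these 9 among them. Without CPB+Nitrite 2, 19 of the 54 rose in edgeR (all genes 8.96% higher and 3.19% lower), and without CPB+Nitrite 3, 17 rose (all genes 10.9% higher and 9.11% lower). Without CPB+Nitrite 1 none rose (all genes 0.451% higher and 0.0269% lower) and the median was 0.25. The sham libraries are shared with the comparison of CPB with sham, and the nitrite libraries with the comparison of CPB+Nitrite with CPB.

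**Figure D4:**
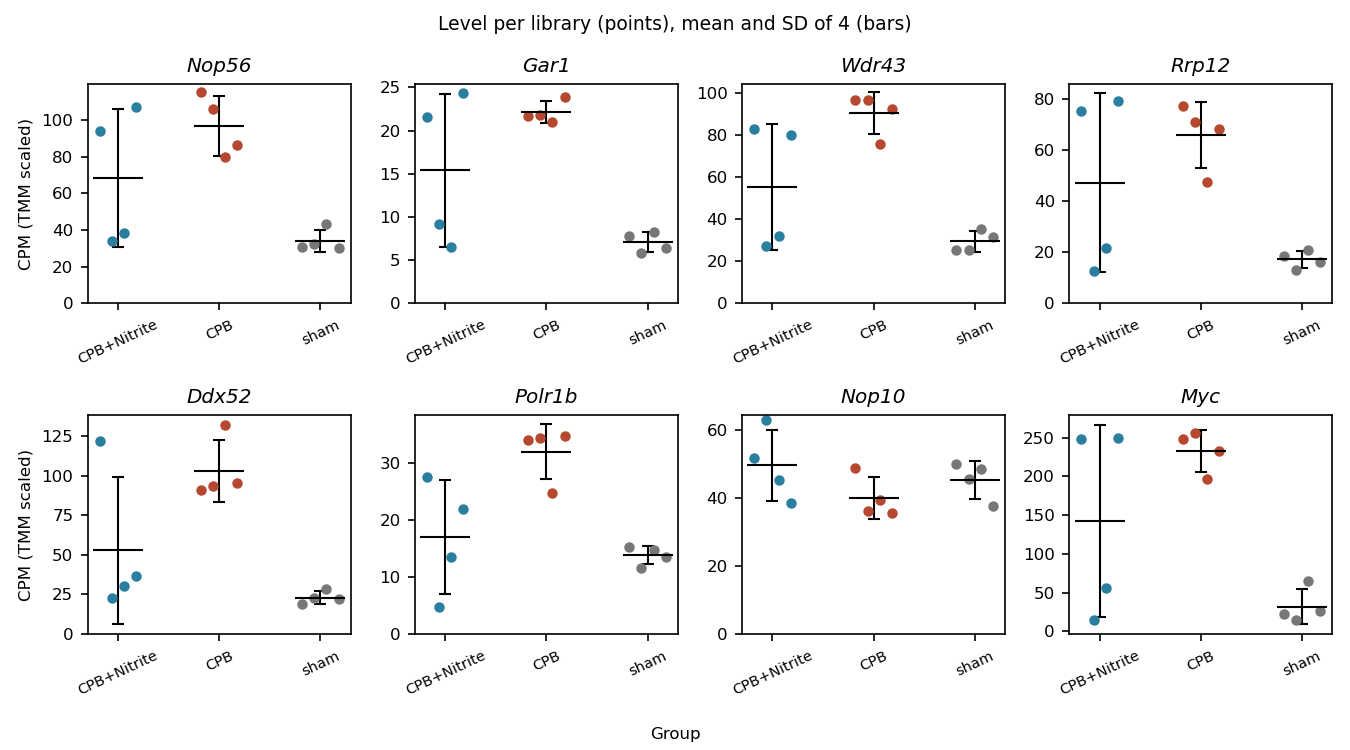
Level of 8 genes in CPM (y axis, from 0) in each library (points) of CPB+Nitrite, CPB and sham kidneys, with mean and standard deviation of 4 libraries (bars). In Nop56, Gar1, Wdr43, Rrp12 and Myc the nitrite points fall in a high pair and a low pair, in Ddx52 a single nitrite point is high, and in Nop10 the 3 groups overlap.

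Myc, the transcription factor named above, had 248, 14.4, 55.6 and 249 CPM in CPB+Nitrite, 248, 256, 196 and 233 in CPB and 21.9, 14.4, 64.7 and 26.6 in sham. CPB and sham did not overlap, and the nitrite libraries split as they did for the 54 genes, with 1 and 4 in the CPB range and 2 and 3 in the sham range. Myc rose in CPB over sham by 2.87 on the log2 scale (SE 0.726, adjusted p 0.00858 in edgeR). It did not pass in CPB+Nitrite over CPB (log2 change -0.72, adjusted p 0.482) or over sham (log2 change 2.15, adjusted p 0.0835). In CPB over sham, its partner Max rose 1.10 on the log2 scale (adjusted p 0.000968) and the antagonist Mnt rose 1.39 (adjusted p 0.00164). The kinase Pim1, known to act with MYC, rose 2.07 (adjusted p 0.00125). In CPB+Nitrite over sham, Pim1 (log2 change 1.74, adjusted p 0.0287) and Max (0.55, adjusted p 0.0499) passed in edgeR, against 3.85% of all genes higher. Pim1 lost that call in 5 of the fits that left out 1 library and Max in 10. Both lost it with the replicate block and with only the 2 groups compared.

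Mdm2, a ubiquitin ligase that ribosomal proteins are known to bind, rose in CPB over sham by 1.95 on the log2 scale (adjusted p 0.0021). Cdkn1a, an inhibitor of cyclin-dependent kinases, rose by 1.46 (adjusted p 0.0128). Cdkn1a had 43.3, 38.1, 30.4 and 86.2 CPM in CPB+Nitrite, 31.7, 40.5, 32.9 and 27.5 in CPB and 12.2, 5.31, 22.0 and 8.6 in sham. Unlike the 54 genes, Cdkn1a was above every sham library in all 4 nitrite libraries. Like Pim1 and Max, it rose in CPB+Nitrite over sham (log2 change 2.04, SE 0.409, adjusted p 0.03). That call was lost without sham 1, sham 2, sham 4, CPB 2, CPB+Nitrite 1 or CPB+Nitrite 4, with the replicate block and with only the 2 groups compared, with log2 changes of 1.64 to 2.5 over the 12 fits that left out 1 library.

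Other genes of the pathway, from lists drawn up with earlier results known, moved less uniformly. The counts below stand beside 21.7% of all tested genes higher and 21.5% lower in CPB over sham. In CPB over sham, 10 of 15 further RNA polymerase I genes rose and none fell, with a median log2 change of 0.59. Tcof1 (treacle), which brings the polymerase to active genes, rose by 1.37 (adjusted p 0.00132) and Taf1c, of the selectivity factor, by 1.13 (adjusted p 0.0062). The initiation factor Rrn3 did not pass, with a log2 change of 0.12 (adjusted p 0.404) that was -0.0676 with scaling by library totals. Ubtf, which marks active ribosomal DNA, rose by 0.33 (adjusted p 0.0414). That call was lost with library totals, with no filter, with a filter at a mean of 2 CPM and with the replicate block. It was also lost without any 1 of sham 2, sham 3, sham 4, CPB 1, CPB 2 and CPB 4. Of 32 further small-subunit factors, 19 rose and none fell (median 0.60), with Rcl1 at 1.45 and Aatf at 1.15. Of 48 further large-subunit factors, 32 rose and 1 fell (median 0.67), and Eif6, which keeps the subunits apart, rose by 1.19 (adjusted p 0.00218). Of 10 factors that assemble small nucleolar particles, 5 rose and none fell (median 0.56).

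Lists of neighbouring processes were described in the same way, beside the 21.7% of all genes that rose and the 21.5% that fell. The RNA exosome, which trims precursor RNA, had 4 genes that rose and 1 that fell of 15, with a median of 0.05 that was -0.129 with scaling by library totals: Exosc6 rose by 0.94 and Exosc5 fell by 0.68, a call lost without sham 1, sham 2, CPB 2, CPB 3 or CPB 4. Translation initiation had 12 of 14 genes that rose (median 0.70), with Eif4ebp1, an inhibitor of cap binding, at 2.30 and Eif4e, the factor it binds, at 0.83. Eif4ebp1 also passed in CPB+Nitrite over sham (log2 change 1.40, adjusted p 0.0391 in edgeR), against 3.85% of all genes higher. That call was lost in 8 of the fits that left out 1 library, with the replicate block and with only the 2 groups compared. Nuclear pore and transport receptor genes had 17 that rose and 2 that fell of 39 (median 0.31), with the import receptor Ipo5 at 1.81.

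**Figure D5:**
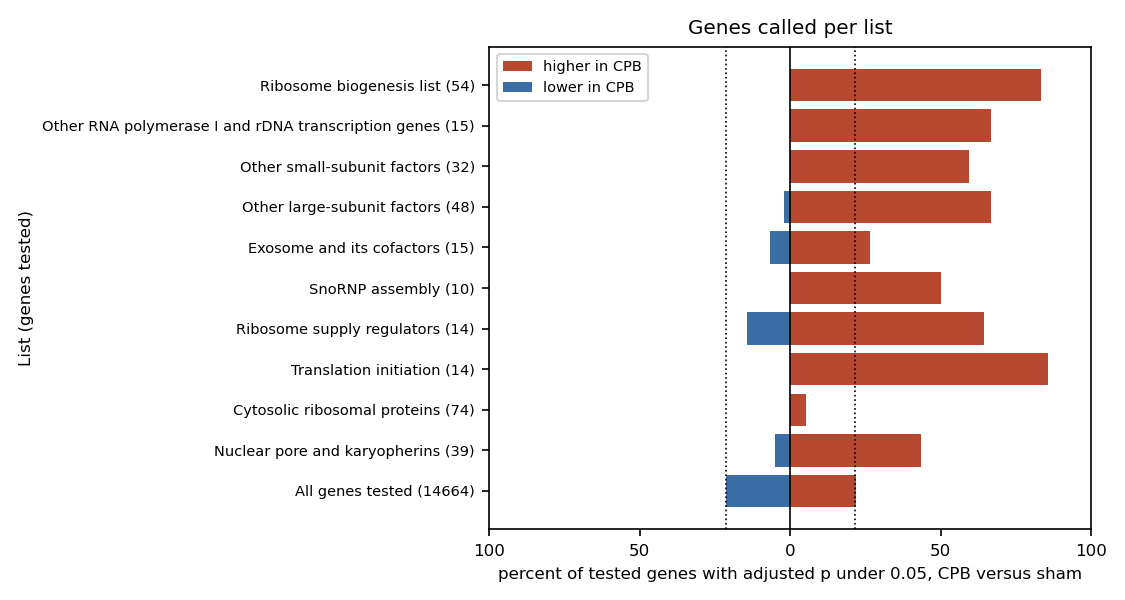
Percent of the tested genes of each list (rows, number tested in brackets) that were higher (right) or lower (left) in CPB than in sham kidneys at an adjusted p under 0.05, with dotted lines at the values for all 14664 genes. Ribosome biogenesis reaches 83.3% higher and 0% lower, and the cytosolic ribosomal proteins, with 4 of 74 higher, have the smallest share of the 10 lists drawn.

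Among the cytosolic ribosomal proteins, the building blocks themselves, few genes passed the test although all moved in the same direction as most of the 54. All 74 tested genes had a positive log2 change in CPB over sham (all genes 47.4%), and the median was 0.34 (all genes -0.05). The test was passed by 4 of 74, against 21.7% of all genes higher and 21.5% lower: Rps4x, Rpl37, Rps23 and Rps27l. Rps23 lost the call without sham 4, and Rps27l lost it without sham 1, sham 2, sham 4, CPB 1 or CPB 3. With scaling by library totals 71 of the 74 were positive, the median was 0.154 and 2 passed. Their mean level relative to sham was 0.43, 0.96, -0.00025 and 0.32 in the nitrite libraries, 0.58, 0.18, 0.51 and 0.27 in the CPB libraries and 0.15, 0.09, 0.11 and -0.35 in the sham libraries. The order of the nitrite libraries was not that of the 54 genes: CPB+Nitrite 2, where the 54 genes were lowest, was the highest for the ribosomal proteins. Ribosomal protein genes have many near-identical copies, so reads may have been split among them.

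Markers of other processes were set beside these values. For their calls in CPB over sham, the shares over all genes were 21.7% higher and 21.5% lower. The markers of injured tubule, Havcr1, Lcn2 and Krt20, all 3 rose in CPB over sham, although the Krt20 values of the groups overlapped. They summed to 29.0 to 743 CPM in CPB+Nitrite, 615 to 1150 in CPB and 4.91 to 34.9 in sham. Havcr1, the kidney injury molecule of the proximal tubule, had 721, 35.5, 22.6 and 275 CPM in CPB+Nitrite, 1110, 739, 654 and 585 in CPB and 4.92, 4.18, 26.5 and 7.15 in sham. As with the 54 genes, nitrite libraries 1 and 4 were the high ones. Proliferation markers did not rise: 0 of 7 were higher and 5 of 7 lower in CPB. The log2 change was negative for 6 and positive for 1, with a median of -0.924. Their mean log2 level relative to the sham mean was -0.767 to -0.351 in CPB+Nitrite, -0.904 to -0.7 in CPB and -0.334 to 0.331 in sham. Their sums, which weigh abundant genes most, overlapped, at 64.6 to 84.8 CPM in CPB+Nitrite, 66.0 to 88.1 in CPB and 68.5 to 84.7 in sham. Of the 7 leukocyte markers tested, 3 rose and 1 fell, and their sum was 101 to 193 CPM in CPB+Nitrite, 59.5 to 95.1 in CPB and 85.1 to 180 in sham, with the B cell marker Ms4a1 at 0 in 5 libraries. Proximal tubule markers summed to 3700 to 4520 CPM in CPB+Nitrite, 3450 to 4320 in CPB and 5280 to 6480 in sham, and 3 of 6 fell in CPB. Collecting duct markers summed to 958 to 3550 CPM in CPB+Nitrite, 418 to 739 in CPB and 985 to 1410 in sham, and 2 of 3 fell in CPB. Fibroblast and smooth muscle markers summed to 58.5 to 88.6 CPM in CPB+Nitrite, 17.5 to 42.9 in CPB and 31.0 to 158 in sham, and 1 of 3 fell. Urothelium markers summed to 2.36 to 84.2 CPM in CPB+Nitrite, 0.486 to 5.06 in CPB and 0.918 to 121 in sham, and 2 of 3 fell. Of 3 adipocyte markers 1 fell, with sums of 11.8 to 39.2 CPM in CPB+Nitrite, 14.1 to 20.9 in CPB and 13.1 to 95.2 in sham. Among 4 endothelial markers 1 rose and 1 fell, and none of the 3 markers of the thick ascending limb and distal tubule, the 3 of podocytes and the 2 adrenal markers tested passed in edgeR; the adrenal marker Cyp11b1 had no read in any library. The part of these cells in the ribosome biogenesis result was not tested.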

How the data were processed

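Total RNA from kidney was extracted with QIAzol, treated with DNase and made into stranded libraries, per the labels' protocols. The submitters' processing notes name bcl2fastq 2.19, cutadapt 1.18, Salmon 1.2.1, R 3.5.1 and the mRatBN7.2 build. The authors deposited estimated counts per gene for the 12 libraries, of which 33.1% of the nonzero values were not whole, and a scaled signal table, in which each deposited column is the counts times 1 factor to within 0.0033 of that factor. The signal table gave the gene names, positions and biotypes. Its mean over the libraries chose the row of repeated symbols in other lists, such as Rpl21, Rpl22, Rpl35a and Rps13. Otherwise its values served only as an alternative for mean levels.

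Estimated counts were rounded and fitted in R 4.3.3 with edgeR 4.0.16 (TMM scaling, filterByExpr with a minimum count of 10, quasi-likelihood test over all 12 libraries, Benjamini-Hochberg adjustment over 14664 genes, threshold 0.05). The biological coefficient of variation was 0.317. Levels are TMM-scaled CPM, which is not per length, so genes are compared only with themselves. Mean levels use a prior count of 2. The fit was tested on simulated data. Promoter letters were searched in the RefSeq table for GRCr8, and the background of other tested genes was chosen after seeing the data. Each role names the gene with the largest change in CPB over sham and those with the smallest p in each comparison. Nop10 and Utp18 were given in every library outside this rule, as exceptions to the rise. The members and lists were chosen with earlier results of these data known. Alternatives were other scaling, filters, a replicate block, DESeq2 1.42.0, limma 3.58.1 voom with sample weights, only the groups compared, and leaving out each library. No 2 libraries of a group agreed within counting noise.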

Additional observations from a re-analysis of the deposited data

Results flagged for a closer look

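In 11 of 180 groups of 4 libraries, over 60 genes, a single library lay far from the other 3. Chance gives about 1 in 20, which is close to this share, so the values below are descriptions. In sham 3, 5 genes were high: Nop56 at 43.0 CPM (others 30.2 to 32.1), Nop58 at 45.8 (27.0 to 30.2), Utp14a at 23.2 (18.6 to 18.9), Rrp9 at 22.6 (13.7 to 15.0) and Gnl3 at 53.8 (30.4 to 33.7). Sham 3 was the highest sham library for 36 of the 54 genes, and its Myc and Havcr1 were also the highest of that group, at 64.7 and 26.5 CPM. In CPB 3, Nolc1 at 119 CPM (154 to 158) and Polr1b at 24.8 (34.1 to 34.7) were low, while Ddx52 at 132 (90.9 to 95.2) was high, and CPB 3 was the lowest CPB library for 37 genes. Nhp2 was high in CPB 1, at 95.5 CPM (58.2 to 61.6). In CPB+Nitrite 1, Ddx52 was high at 122 CPM (22.5 to 36.6), as was Ubtf at 159 (142 to 144).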

How the results depend on the processing

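The 45 higher genes of CPB over sham were 38 to 49 across all settings (all genes 14.6% to 29.7% higher), and 37 of them passed in every one of the 12 leave-one-out and 8 other fits. With library totals alone the median was 0.722, and Utp18 (-0.157), Imp4 (-0.000246) and Rrn3 (-0.0676) turned negative. Utp18 was also -0.0205 with a mean of at least 2 CPM and -0.0206 with the replicate block. For CPB+Nitrite over CPB, library totals turned Dkc1 to 0.0496 and Rrp1 to 0.0624, and voom turned Rrp1 to 0.0653. For CPB+Nitrite over sham, library totals turned Nop16 (-0.0167), Ltv1 (-0.000879), Dcaf13 (-0.0318), Polr1a (-0.0696), Rrn3 (-0.0678) and Ubtf (-0.0288), no filter turned Rrn3 (-0.00317), and the block turned Polr1a (-0.0076).

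Counts of genes called in CPB+Nitrite over CPB were 2235 with DESeq2 and 1 with voom, and 5 of the 54 were lower with DESeq2. In CPB+Nitrite over sham they were 28 with the replicate block, 2144 with DESeq2, 2870 with voom and 0 with only the 2 groups compared, and 9 and 25 of the 54 were higher with DESeq2 and voom. The promoter share was 22.9% before the start. Leaving out 1 library gave 0 to 2865 genes in CPB+Nitrite over CPB (0 to 23 of the 54 lower) and 0 to 2976 in CPB+Nitrite over sham (0 to 19 of the 54 higher).

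The labels do not state whether replicate numbers pair the libraries. Same-numbered deviations correlated from -0.107 to 0.381, and 7 of 24 were best with their own number, which cannot show whether libraries were paired. With the replicate block 44 of the 54 rose in CPB (all genes 21.1% higher). Values near 0 changed sign when 1 library was left out, and the cause was not tested. In CPB over sham the log2 ranges were -0.12 to 0.169 for Utp18. In CPB+Nitrite over CPB the log2 ranges were -0.195 to 0.0594 for Dkc1, -0.0867 to 0.192 for Utp18, -0.128 to 0.0562 for Rrp1, -0.12 to 0.218 for Rps23. In CPB+Nitrite over sham the log2 ranges were -0.00631 to 0.226 for Nop10, -0.0492 to 0.12 for Nop16, -0.00313 to 0.17 for Utp18, -0.112 to 0.314 for Wdr3, -0.0376 to 0.186 for Ltv1, -0.0429 to 0.126 for Dcaf13, -0.0451 to 0.267 for Imp3, -0.135 to 0.0165 for Imp4, -0.223 to 0.232 for Polr1a, -0.0482 to 0.615 for Polr1b, -0.0702 to 0.272 for Nat10, -0.0521 to 0.0873 for Rrn3, -0.0031 to 0.0934 for Ubtf, -0.202 to 0.464 for Shq1.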
